A study of Mus musculus with 18 samples.

Results

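The genes described here are the inhibitory receptors of T cells, Pdcd1 (PD-1), Ctla4 (CTLA-4), Lag3 (LAG-3), Havcr2 (TIM-3), Tigit, Btla and Cd160, together with Tox, a DNA-binding factor tied to T cell exhaustion. They were chosen by name from the table of read counts, and 7 of the 8 were measured among its 14695 genes. Havcr2 was not analysed here. The libraries were polyadenylated RNA from primary mouse CD8+ T cells of spleen and lymph node, edited with CRISPR/Cas9. The guides were aimed at Atf4, at Cebpg, or at Rosa26, the control locus. Cells of each genotype were cultured for 24 hours without drug or with halofuginone, which gave 6 groups of 3 libraries: Rosa26 untreated, Rosa26 with halofuginone, Atf4 knockout untreated, Atf4 knockout with halofuginone, Cebpg knockout untreated and Cebpg knockout with halofuginone. All groups, the controls included, had been through CRISPR/Cas9 editing. The labels do not give the guides, the editing efficiency, the strain or age of the mice, the dose, or whether libraries came from separate mice or cultures, so p-values measure the spread between these libraries only.

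Inhibitory receptors sit on the T cell surface and dampen signals from the antigen receptor and from costimulatory receptors. CTLA-4 competes with CD28 for CD80 and CD86, PD-1 binds PD-L1 and PD-L2, LAG-3 binds MHC class II, TIGIT competes with CD226 for the poliovirus receptor, and BTLA and CD160 both bind the TNF receptor family member HVEM. Most are induced when T cells are activated, and in chronic infection and tumours several are kept high together under the influence of TOX. Halofuginone blocks the prolyl-tRNA synthetase and so mimics a shortage of amino acids, which activates the kinase GCN2 and the transcription factor ATF4. CEBPG is a partner with which ATF4 forms dimers on DNA.

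Each library held 14190361 to 20281602 counts over genes. The targeted transcripts did not separate the genotypes in untreated cells: Atf4 was at 256 to 281 CPM (counts scaled to a common library size) in Rosa26 and 274 to 301 in Atf4 knockout libraries, and Cebpg at 52.8 to 55.1 in Rosa26 and 53.9 to 58.5 in Cebpg knockout libraries. With halofuginone Cebpg was lower in Cebpg knockout than in Rosa26 cells, by a log2 difference of -0.78 ± 0.0601 (SE, adjusted p = 3.19e-08), and Atf4 in Atf4 knockout cells had a log2 difference of -0.26 ± 0.101 that was not called (adjusted p = 0.0587). A frameshift need not lower the transcript, so these levels check the labels only in part, and the groups are named as labelled. In each halofuginone group 1 library stood apart by a low level of the nuclear RNA Malat1: Rosa26 replicate 2 was at 672 CPM against 2074 and 2607, Atf4 knockout replicate 3 at 1158 against 2404 and 3415, and Cebpg knockout replicate 3 at 1960 against 3237 and 3580. Calls of the 7 genes that change without these 3 libraries, called the low-Malat1 libraries, are given below. The Rosa26 untreated libraries were low in Malat1 as a group, at 1023, 858 and 1168 CPM, against 2026 to 2606 in the untreated knockout libraries. Comparisons with Rosa26 untreated cells keep that difference when the low-Malat1 libraries are left out. The 8 markers of CD8 T cells summed to 3656 to 5000 CPM in every library, so the labelled cell type was seen throughout. Of other cell types, 3 of 7 B cell markers summed to 7.43 to 14.7 CPM, 3 of 9 dendritic and myeloid markers to 6.35 to 11.7, 4 of 8 natural killer markers to 290 to 408, and 5 of 5 gamma-delta T cell markers to 120 to 182. The gamma-delta markers were lower with halofuginone in each genotype, at 178 to 182 without and 148 to 159 CPM with it in Rosa26, 162 to 174 and 123 to 134 in Atf4 knockout, and 167 to 172 and 120 to 127 in Cebpg knockout libraries. Of the 5, 2, 5 and 4 were called lower in these genotypes, where 24.1%, 26.5% and 28.0% of all genes were called lower. The part of these other cell types in the results was not tested.

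The DNA just upstream of the measured receptors is shown for Ctla4 and Tigit, whose transcripts rose with the drug, and for Cd160, whose transcript fell. The sequences are RefSeq windows of 250 bases before the start site (build GRCm38.p6, while the counts were made on GRCm39), read 5′ to 3′ on the gene's strand, and 6 of the 8 genes had such a window. Capitals mark the core GGAAA of sites bound by NFAT, the calcium-driven factor of activated T cells, on either strand (TTTCC is its complement). Ctla4 lies at chr1:60908775-60909024 on the plus strand, Tigit at chr16:43664185-43664434 on the minus strand, and the Cd160 windows, which belong to 2 annotated start sites, at chr3:96829352-96829601 and chr3:96814522-96814771, both on the minus strand.
Ctla4: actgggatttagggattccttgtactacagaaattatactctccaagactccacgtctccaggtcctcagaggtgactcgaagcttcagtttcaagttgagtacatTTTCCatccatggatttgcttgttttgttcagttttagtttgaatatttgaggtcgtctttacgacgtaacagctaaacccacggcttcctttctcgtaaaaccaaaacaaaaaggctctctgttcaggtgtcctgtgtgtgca
Tigit: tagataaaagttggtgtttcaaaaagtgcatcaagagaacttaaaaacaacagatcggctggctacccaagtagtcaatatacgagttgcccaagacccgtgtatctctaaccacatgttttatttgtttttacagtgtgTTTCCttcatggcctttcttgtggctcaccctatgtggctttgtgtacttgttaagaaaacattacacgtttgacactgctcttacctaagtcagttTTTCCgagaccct
Cd160, start site 1: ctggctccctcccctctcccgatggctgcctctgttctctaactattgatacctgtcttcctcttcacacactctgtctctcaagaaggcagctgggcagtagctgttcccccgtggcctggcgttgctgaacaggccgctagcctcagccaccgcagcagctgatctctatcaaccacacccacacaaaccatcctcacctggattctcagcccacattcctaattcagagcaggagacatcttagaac
Cd160, start site 2: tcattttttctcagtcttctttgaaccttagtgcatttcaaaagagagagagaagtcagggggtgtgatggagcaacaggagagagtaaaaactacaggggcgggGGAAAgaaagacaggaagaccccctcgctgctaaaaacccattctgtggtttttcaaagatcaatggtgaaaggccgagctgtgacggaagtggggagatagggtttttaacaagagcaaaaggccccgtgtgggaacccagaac
The Ctla4 window held 1 GGAAA, beginning 144 bases before the start site, and the Tigit window held 2, at 110 and 13 bases before it. Cd160 had none at the start site listed as 1 and 1 at the other, 145 bases before it. Pdcd1 held 2, at 28 and 23 bases before its start, and Btla held none. GGAAA is short, and 55.6% of 32851 RefSeq promoter windows of this length hold it. The composite site of ATF4 and C/EBP factors (TGATGNAA on either strand, in 3.45% of all windows), the AP-1 site (TGANTCA, 6.75%) and the cyclic AMP response element (TGACGTCA, 1.55%) were not in the windows of the measured receptors. TGATGNAA can hold GGAAA across its end where its open base is G, and TGANTCA and TGACGTCA cannot. A match is a match of letters only, and its absence says only that these letters are not in this window. The last bases of the Tigit table entry, past the start site, were not found in a GENCODE transcript of the gene. A first exon that ends before those bases would give the same, so this match leaves its start site unchecked.

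In Rosa26 cells halofuginone moved all 7 measured genes, and not in 1 direction. Ctla4, Lag3 and Tigit rose, by 2.23-fold, 2.06-fold and 2.17-fold. Cd160 fell 2.24-fold, Pdcd1 1.64-fold, Tox 1.49-fold and Btla 1.2-fold. In edgeR's quasi-likelihood test over all genes, 23.6% of the 14695 genes were called higher with the drug and 24.1% lower at an adjusted p of 0.05, and the 3 genes up and 4 down are to be read against those shares. The absolute log2 change had a median of 1.04 over the 7 genes and 0.39 over all genes. The genes were chosen with earlier results of these data known, so these shares and medians are a description only. In bulk RNA, fewer cells of a type and less RNA per cell cannot be told apart. The plot of levels by library shows all of these values.

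**Figure D1:**
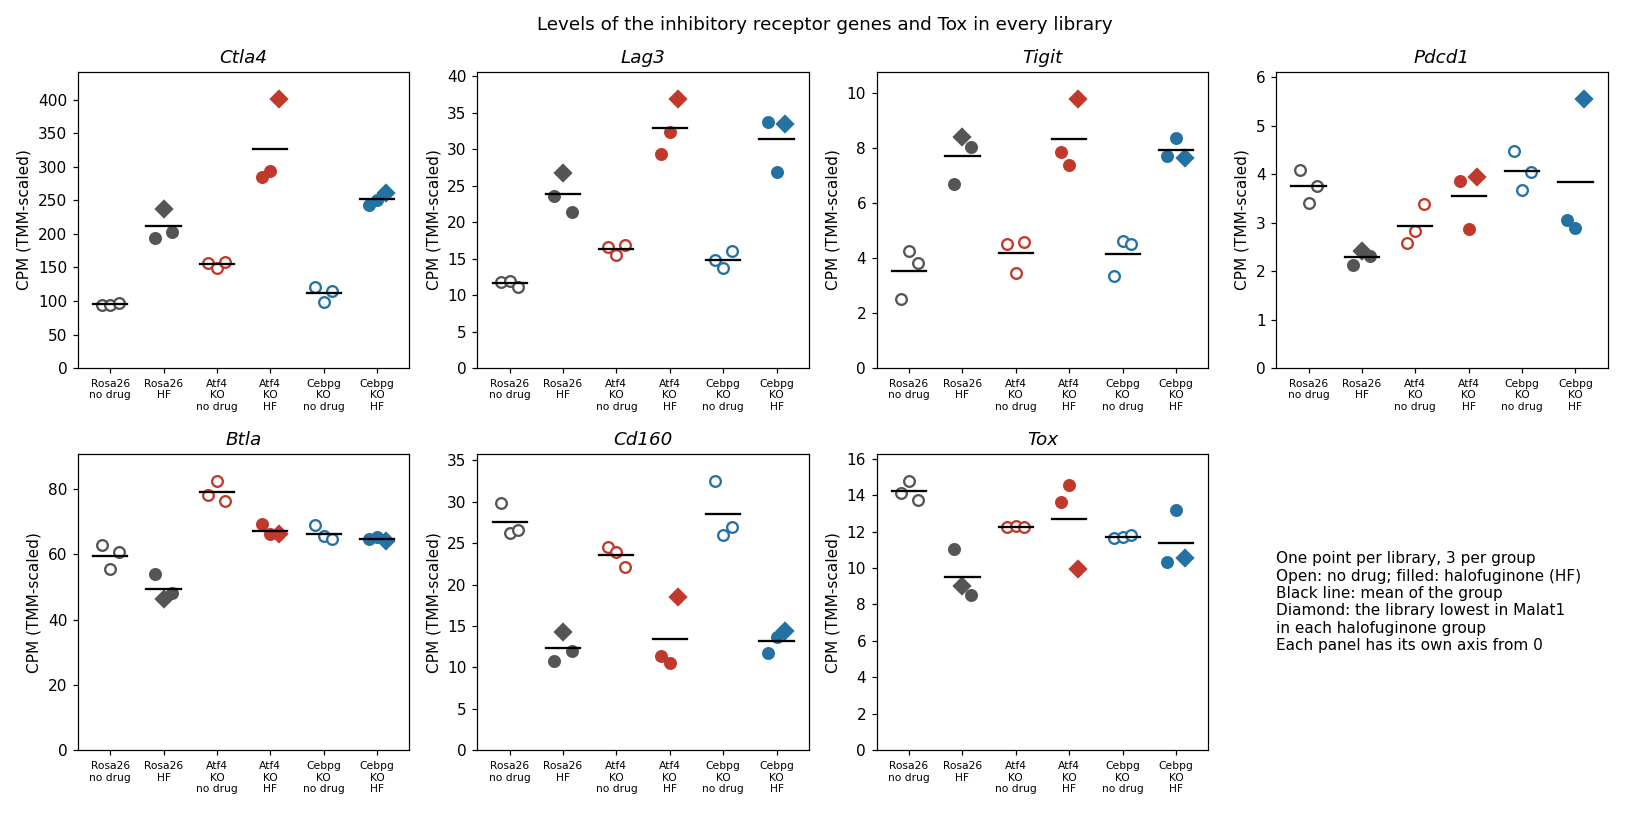
Levels of the 7 measured genes in CPM (vertical axis from 0, scaled to library size by TMM) in each of the 18 libraries, by genotype and drug, with the group mean as a line. Open points are untreated and filled points had halofuginone (HF). Diamonds mark the library lowest in Malat1 within each halofuginone group. Ctla4, Lag3 and Tigit are higher in every filled than in every open group of the same genotype, and Cd160 is lower.

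Ctla4, the CD28 competitor, was the most abundant of the group on every scale. Its level was 93.9, 93.8 and 97.1 CPM in the Rosa26 untreated libraries and 195, 238 and 202 CPM with halofuginone. Atf4 knockout libraries stood at 157, 150 and 159 CPM untreated and 285, 294 and 402 CPM with drug. Cebpg knockout libraries stood at 121, 99.0 and 115 CPM untreated and 243, 251 and 261 CPM with drug. None of the 6 groups overlapped another, and the order from the top was Atf4 knockout, Cebpg knockout and Rosa26 with the drug, then the same genotypes in the same order without it. The highest library, at 402 CPM, and the highest Rosa26 library with drug, at 238 CPM, are both libraries low in Malat1. The log2 change with halofuginone was 1.15 ± 0.108 (SE, adjusted p = 6.79e-08) in Rosa26, 1.07 ± 0.107 (adjusted p = 1.18e-07) in Atf4 knockout and 1.17 ± 0.108 (adjusted p = 3.76e-08) in Cebpg knockout cells. Without the low-Malat1 libraries the change in Atf4 knockout cells was 0.93.

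Lag3, the MHC class II receptor, followed the same order at a lower level. It was at 11.8, 11.9 and 11.1 CPM in Rosa26 untreated libraries and at 23.5, 26.8 and 21.4 CPM with the drug. Atf4 knockout libraries held 16.6, 15.5 and 16.9 CPM without and 29.4, 32.3 and 36.9 CPM with it. Cebpg knockout libraries held 14.8, 13.7 and 16 CPM without and 33.7, 26.9 and 33.5 CPM with it. Every drug-treated library was above every untreated library of any genotype, while the knockouts overlapped each other both without and with drug. Lag3 rose with halofuginone by a log2 change of 1.04 ± 0.113 in Rosa26 (adjusted p = 2.34e-07), 1.01 ± 0.109 in Atf4 knockout (adjusted p = 1.67e-07) and 1.08 ± 0.110 in Cebpg knockout cells (adjusted p = 6.9e-08).

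Tigit, the CD226 competitor, rose in all genotypes from a low level of 42 to 164 counts per library. It was at 2.52, 4.25 and 3.82 CPM in Rosa26 untreated libraries and at 6.68, 8.38 and 8.03 CPM with halofuginone. In Atf4 knockout cells the values were 4.50, 3.46 and 4.57 CPM without and 7.86, 7.37 and 9.78 CPM with drug. In Cebpg knockout cells they were 3.34, 4.61 and 4.52 CPM without and 7.70, 8.37 and 7.64 CPM with drug. The 3 treated groups overlapped among themselves, as did the 3 untreated groups, and no treated library reached down to an untreated one. The log2 change was 1.12 ± 0.192 in Rosa26 (adjusted p = 7.07e-05), 1.00 ± 0.190 in Atf4 knockout (adjusted p = 0.000188) and 0.93 ± 0.191 in Cebpg knockout cells (adjusted p = 0.000385).

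Cd160, an HVEM-binding receptor that is anchored to the membrane by a lipid and is also a marker of natural killer cells, went the other way. It was at 29.8, 26.2 and 26.6 CPM in Rosa26 untreated libraries and at 10.8, 14.2 and 12.0 CPM with halofuginone. Atf4 knockout libraries held 24.6, 23.9 and 22.1 CPM without and 11.4, 10.5 and 18.5 CPM with drug. Cebpg knockout libraries held 32.5, 26.0 and 27.0 CPM without and 11.7, 13.7 and 14.4 CPM with drug. The treated groups overlapped each other and lay below every untreated library, and the highest treated value in each genotype came from the low-Malat1 library. Cd160 fell by a log2 change of -1.16 ± 0.162 in Rosa26 (adjusted p = 8.09e-06), -0.81 ± 0.163 in Atf4 knockout (adjusted p = 0.000399) and -1.11 ± 0.163 in Cebpg knockout cells (adjusted p = 1.17e-05). In Atf4 knockout cells the change was -1.07 without the low-Malat1 libraries. The 4 natural killer markers measured summed to 293 to 311 CPM in untreated and 328 to 375 CPM in treated Rosa26 libraries, where Eomes fell (-1.5) and Klrk1 (1.51) and Nkg7 (0.43) rose. Their part in the Cd160 change was not tested. Cd160 shares 68 exonic bases with Pdzk1 on the opposite strand, and the strand setting of the counting is not given in the sources used here.

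Btla, the other HVEM-binding receptor, is carried by resting T cells and moved little with the drug. Its level was 62.8, 55.4 and 60.6 CPM in Rosa26 untreated libraries and 53.8, 46.4 and 48.3 CPM with halofuginone. It was 78.3, 82.5 and 76.4 CPM in Atf4 knockout libraries without and 69.2, 66.3 and 66.2 CPM with drug. In Cebpg knockout libraries it was 68.9, 65.5 and 64.7 CPM without and 64.8, 65.5 and 64.1 CPM with drug. The treated and untreated libraries were separate in Rosa26 and Atf4 knockout cells and overlapped in Cebpg knockout cells. Btla fell by a log2 change of -0.27 ± 0.0649 in Rosa26 (adjusted p = 0.00209) and -0.23 ± 0.0638 in Atf4 knockout cells (adjusted p = 0.00453). The second call was lost with upper-quartile scaling, at -0.17 and adjusted p = 0.0542. In Cebpg knockout cells the log2 change of -0.03 ± 0.0643 was not called (adjusted p = 0.691), with a 95% interval from -0.17 to 0.10.

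Pdcd1, which encodes PD-1, was scarce, with 37 to 80 counts per library. It was at 4.08, 3.41 and 3.76 CPM in Rosa26 untreated libraries and at 2.13, 2.42 and 2.30 CPM with halofuginone. Atf4 knockout libraries held 2.59, 2.83 and 3.38 CPM without and 3.87, 2.87 and 3.94 CPM with drug. Cebpg knockout libraries held 4.47, 3.68 and 4.05 CPM without and 3.06, 2.88 and 5.56 CPM with drug. Only in Rosa26 cells were treated and untreated libraries separate, and the 5.56 CPM came from the low-Malat1 library. Pdcd1 fell in Rosa26 cells by a log2 change of -0.72 ± 0.240 (adjusted p = 0.0185). The call was lost without Rosa26 untreated replicate 1 (-0.65, adjusted p = 0.0607) or Rosa26 halofuginone replicate 1 (adjusted p = 0.063). The log2 change was 0.28 ± 0.238 in Atf4 knockout (adjusted p = 0.351) and -0.09 ± 0.232 in Cebpg knockout cells (adjusted p = 0.774), and neither was called. The Cebpg knockout value was -0.41 without the 3 low-Malat1 libraries (adjusted p = 0.142), and ran from -0.45 to 0.09 with 1 library left out.

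Tox, the HMG-box factor, is needed for exhausted T cells to persist. Its level was 14.1, 14.8 and 13.7 CPM in Rosa26 untreated libraries and 11, 9.0 and 8.53 CPM with halofuginone. Atf4 knockout libraries held 12.3 CPM in each of the 3 untreated and 13.6, 14.5 and 9.96 CPM in the treated, the lowest being the low-Malat1 library. Cebpg knockout libraries held 11.7, 11.7 and 11.8 CPM without and 10.3, 13.2 and 10.6 CPM with drug. Treated and untreated libraries were separate in Rosa26 cells and overlapped in both knockouts. Tox fell in Rosa26 cells by a log2 change of -0.57 ± 0.133 (adjusted p = 0.00134). In Atf4 knockout cells its change of 0.05 ± 0.132 (adjusted p = 0.786, 95% interval -0.23 to 0.33, and 0.23 without the low-Malat1 libraries) and in Cebpg knockout cells its change of -0.05 ± 0.134 (adjusted p = 0.794, 95% interval -0.33 to 0.23) were not called. Tox shares 260 exonic bases with an antisense gene, Gm11802.

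In Atf4 knockout cells 3 of the 7 genes rose with the drug and 2 fell, where 23.1% of all genes were higher and 26.5% lower. In Cebpg knockout cells 3 rose and 1 fell, where 23.1% were higher and 28.0% lower. The plot of drug responses sets the genotypes side by side.

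**Figure D2:**
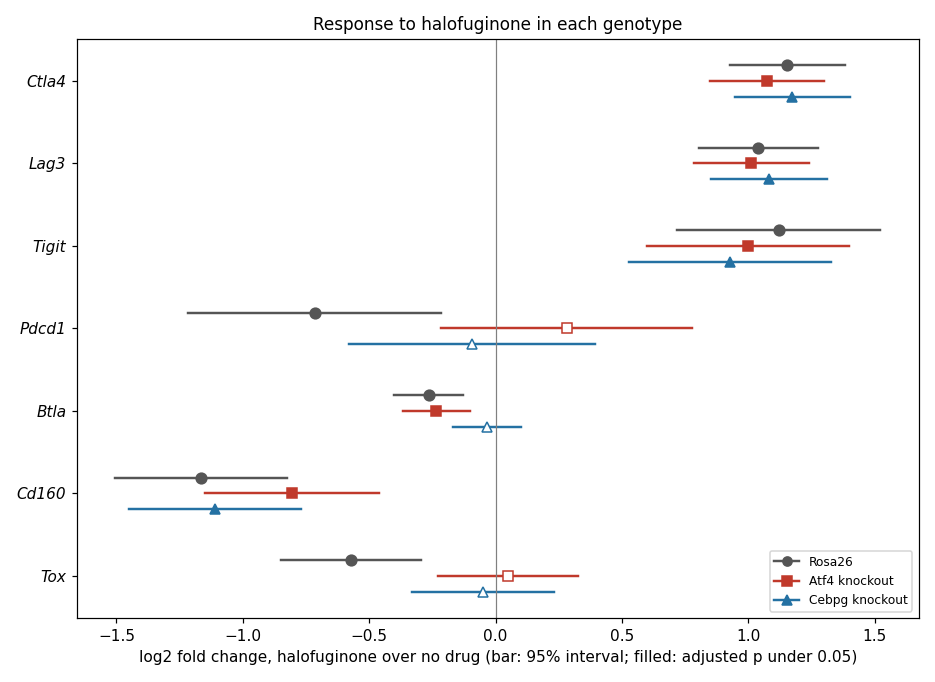
The log2 fold change of each gene with halofuginone over no drug (horizontal axis) in Rosa26, Atf4 knockout and Cebpg knockout cells, with 95% intervals as bars and filled symbols where the adjusted p was under 0.05. Ctla4, Lag3 and Tigit lie near 1 in all 3 genotypes, and Pdcd1 and Tox are filled in Rosa26 alone.

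Whether a drug response differed between genotypes was tested by the interaction. For Ctla4 the response in Atf4 knockout minus that in Rosa26 cells was -0.08 on the log2 scale, with a 95% interval from -0.40 to 0.24, and in Cebpg knockout cells 0.02, from -0.30 to 0.34. For Lag3 these were -0.03, from -0.35 to 0.30, and 0.04, from -0.29 to 0.37. For Tigit they were -0.12, from -0.69 to 0.44, and -0.19, from -0.76 to 0.37. Differences within these intervals are not excluded by these libraries. No gene of the 7 passed an adjusted p of 0.05 in either interaction by edgeR, where 2.41% of all genes were called with a more positive response in Atf4 knockout cells and 4.01% with a more negative one, and 0.374% and 2.10% in Cebpg knockout cells. At an unadjusted p of 0.05, 2 of the 7 passed in each, where 19.9% of all genes passed for Atf4 and 13.6% for Cebpg. DESeq2 called 2 for Atf4, where it called 10.3% of all genes, and 0 for Cebpg, and limma-voom called 0 in both.

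The largest interactions were those of Pdcd1 and Tox. For Pdcd1 the response in Atf4 knockout minus that in Rosa26 cells was 1.00 ± 0.338 (unadjusted p = 0.00805, adjusted p = 0.0888), and in Cebpg knockout cells 0.62 ± 0.334 (adjusted p = 0.445). The Cebpg value was 0.31 without the 3 low-Malat1 libraries and ran from 0.26 to 0.84 with 1 library left out. Over the alternatives the adjusted p for Atf4 ran from 0.0351 with DESeq2 to 0.181, and it was 0.0374 without Cebpg knockout halofuginone replicate 3. For Tox the Atf4 interaction was 0.62 ± 0.187 (unadjusted p = 0.00357, adjusted p = 0.0537) and ran from an adjusted p of 0.00255 to 0.131 over the alternatives. Tox was called for Atf4 with RLE scaling (0.0375), with DESeq2 (0.0208), without the 3 low-Malat1 libraries (0.72, 0.00414), and without Rosa26 halofuginone replicate 1 (0.0308), Atf4 knockout halofuginone replicate 3 (0.84, 0.00255) or Cebpg knockout halofuginone replicate 2 (0.0375). The Tox interaction for Cebpg was 0.52 ± 0.188 (adjusted p = 0.186) and was called only without Atf4 knockout halofuginone replicate 3 (0.58, adjusted p = 0.0433). Btla had an interaction of 0.23 ± 0.0914 for Cebpg (unadjusted p = 0.0206, adjusted p = 0.241). With RLE scaling the share of called genes whose response was more positive moved from 37.5% to 59.0% for Atf4 and from 15.2% to 40.7% for Cebpg.

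Without the drug, Atf4 knockout cells held more Ctla4, Lag3 and Btla transcript than Rosa26 cells. Ctla4 was 1.63-fold higher (log2 difference 0.71 ± 0.108, adjusted p = 0.000117), Lag3 1.40-fold (0.49 ± 0.116, adjusted p = 0.00411) and Btla 1.33-fold (0.41 ± 0.0641, adjusted p = 0.000114). So 3 of 7 rose and 0 fell, where 11.7% of all genes were called higher and 14.3% lower. Pdcd1 at -0.36 (adjusted p = 0.282), Cd160 at -0.23 (adjusted p = 0.299), Tox at -0.21 (adjusted p = 0.247) and Tigit at 0.24 (adjusted p = 0.399) were not called. Cd160 was called lower in the fit of these groups alone (-0.22, adjusted p = 0.0346), which called 6086 of the 14695 genes. It was also called lower without Atf4 knockout halofuginone replicate 3 (-0.27, adjusted p = 0.0393). With upper-quartile scaling 57.6% of the called genes were higher, against 44.9% with TMM.
Untreated Cebpg knockout cells had Ctla4, Lag3 and Btla values above those of Rosa26 cells and Tox values below, none of which passed. None of the 7 genes was called by edgeR, DESeq2 or limma-voom, where 2.71% of all genes were higher and 2.29% lower, and 4 had an unadjusted p under 0.05, as had 23.7% of all genes: Ctla4 at 0.23 (adjusted p = 0.205), Lag3 at 0.35 (adjusted p = 0.0805), Btla at 0.16 (adjusted p = 0.154) and Tox at -0.28 (adjusted p = 0.206). In the fit of these groups alone, which called 28.0% of all genes, all 4 were called, Ctla4 with an adjusted p of 0.00198, Lag3 0.0123, Btla 0.0459 and Tox 0.0483. Without the 3 low-Malat1 libraries Ctla4 (0.000662), Lag3 (0.00996) and Btla (0.0454) were called, and with upper-quartile scaling Ctla4 (0.048) and Lag3 (0.0219). Ctla4 (0.0346) and Lag3 (0.0385) were also called without Atf4 knockout halofuginone replicate 3, and Lag3 without Rosa26 halofuginone replicate 2 (0.0487) or Cebpg knockout halofuginone replicate 2 (0.0431). With RLE scaling 26.2% of the called genes were higher, against 54.1% with TMM.
With halofuginone, 4 of 7 genes were higher in Atf4 knockout than in Rosa26 cells and 0 lower, where 11.8% of all genes were higher and 16.3% lower. These were Ctla4 (0.63 ± 0.106, adjusted p = 0.000174), Lag3 (0.46 ± 0.105, adjusted p = 0.00222), Btla (0.44 ± 0.0648, adjusted p = 3.45e-05) and Tox (0.41 ± 0.134, adjusted p = 0.0267). The Tox libraries overlapped, and its call was lost in the fit of these groups alone (adjusted p = 0.153) and without Rosa26 halofuginone replicate 2 (0.114) or 3 (0.106) or Atf4 knockout halofuginone replicate 1 (0.104) or 2 (0.147). Pdcd1 at 0.64 ± 0.241 was not called (adjusted p = 0.0538). It was called with RLE scaling (0.0407), upper-quartile scaling (0.0265), DESeq2 (0.0345) and a stricter filter (0.04). It was also called without Atf4 knockout halofuginone replicate 2 (0.0354) or Cebpg knockout halofuginone replicate 2 (0.038) or 3 (0.0199). Upper-quartile scaling moved the share of called genes that were higher from 41.9% to 52.2%.
Cebpg knockout cells with halofuginone held more Pdcd1 (0.74 ± 0.241, adjusted p = 0.0372), Lag3 (0.39 ± 0.106, adjusted p = 0.0121) and Btla (0.39 ± 0.0650, adjusted p = 0.000311) than Rosa26 cells with it. That is 3 of 7 higher and 0 lower, where 5.74% of all genes were higher and 13.1% lower. The Pdcd1 difference was 0.38 without Cebpg knockout halofuginone replicate 3 (adjusted p = 0.255) and 0.43 without the 3 low-Malat1 libraries (adjusted p = 0.303), and its call was also lost without any 1 of the 3 Rosa26 halofuginone libraries (0.1, 0.0622 and 0.0694), with limma-voom (0.0621) and in the groups alone (0.113). The Lag3 call was lost without Rosa26 halofuginone replicate 3 (0.0582) or Cebpg knockout halofuginone replicate 1 (0.072). Ctla4 at 0.25 ± 0.106 was not called (adjusted p = 0.109) and was with RLE (0.0399) and upper-quartile scaling (0.00481), DESeq2 (0.0204), a stricter filter (0.046), the groups alone (0.0268), without the 3 low-Malat1 libraries (0.32, 4.34e-05), and without Rosa26 halofuginone replicate 2 (0.0188) or Atf4 knockout halofuginone replicate 3 (0.00131). Upper-quartile scaling moved the share of called genes that were higher from 30.4% to 50.7%.

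**Figure D3:**
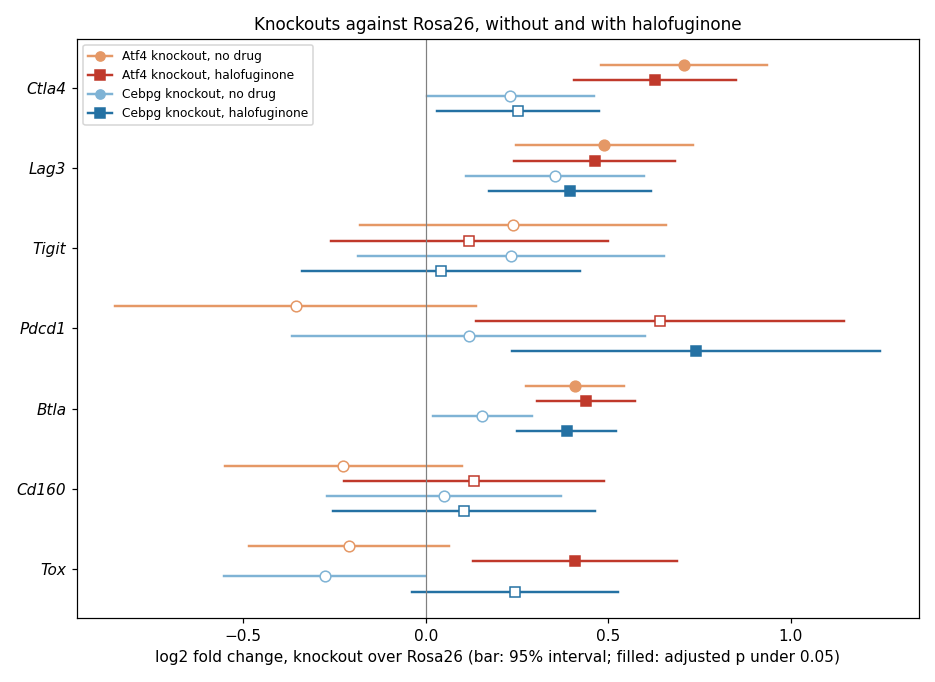
The log2 fold change of each gene in Atf4 or Cebpg knockout over Rosa26 cells (horizontal axis), without drug (circles) and with halofuginone (squares), with 95% intervals as bars and filled symbols where the adjusted p was under 0.05. Ctla4, Lag3 and Btla are to the right of 0 in all 4 comparisons, and Pdcd1 and Tox lie further right with the drug than without it in both knockouts.

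The comparisons of the knockouts with Rosa26 share the Rosa26 libraries and are not independent, so the knockouts were also compared with each other. Untreated, Cebpg knockout cells held less Ctla4 (-0.48 ± 0.108, adjusted p = 0.0195) and Btla (-0.25 ± 0.0639, adjusted p = 0.0335) than Atf4 knockout cells, so 0 of 7 were higher and 2 lower where 2.01% of all genes were higher and 1.31% lower. The Ctla4 call was lost without any 1 of the 3 Atf4 knockout untreated libraries or without Cebpg knockout untreated replicate 2 or 3 (adjusted p of 0.0565 to 0.118). The Btla call was lost without any 1 of the 6 untreated knockout libraries or without Cebpg knockout halofuginone replicate 2 (adjusted p of 0.051 to 0.154). With halofuginone none of the 7 was called, where 0.538% of all genes were higher and 0.463% lower. Ctla4 alone had an unadjusted p under 0.05, as had 12.4% of all genes, at -0.38 ± 0.105 (adjusted p = 0.104), and was called by DESeq2 (0.00979, with 3.41% of all genes called), with upper-quartile scaling (0.0289), without the 3 low-Malat1 libraries (-0.24, adjusted p = 0.00947) and without Rosa26 halofuginone replicate 2 (0.0372), and not by limma-voom.

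Levels can be compared between genes only per length. In CPM per kilobase of exon, the group means of Ctla4 ran from 40.8 in Rosa26 untreated to 140 in Atf4 knockout treated cells, those of Btla from 14.6 to 23.3, and those of Lag3 from 5.51 to 15.6. Cd160 ran from 4.67 to 10.8, Tigit from 3.84 to 9.07, Pdcd1 from 1.18 to 2.11 and Tox from 1.25 to 1.87. On this scale Ctla4 was above the other 6 genes in every group, and Pdcd1 and Tox were the lowest. In Rosa26 cells Lag3 was below Cd160 without the drug, at 5.51 and 10.4, and above it with the drug, at 11.3 and 4.67.

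Over the 18 libraries the log2 levels of Ctla4 and Lag3 had a Pearson correlation of 0.968, Lag3 and Tigit 0.902, and Ctla4 and Tigit 0.888, while Cd160 was at -0.849 with Tigit, -0.831 with Lag3 and -0.800 with Ctla4. These libraries share 6 conditions, so the values mainly describe group means. Among 9261 genes of at least 5 CPM on average, those most like Ctla4 included Vamp4 (0.987) and Gpbp1l1 (0.986). Lag3 was closest to Gpr146 (0.981), H2-Q4 (0.981) and B4galt7 (0.980), and Tigit to Mtfr1l (0.965), Dtx4 (0.964) and Evl (0.953). Cd160 was closest to Ccdc137 (0.982), Spn (0.976) and Rcsd1 (0.974). No gene came so near to Btla (Sh2d3c, 0.873), Pdcd1 (Nqo2, 0.781) or Tox (Usp33, 0.773).

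The partners of each receptor did not all move as it did. On the PD-1 axis Pdcd1 fell in Rosa26 cells while its ligand gene Cd274, which T cells also express, rose from 19 ± 2.81 to 105 ± 22.3 CPM (SD, n = 3), a log2 change of 2.46 ± 0.212 (SE, adjusted p = 1.21e-07). Cd274 also rose in Atf4 knockout (1.95) and Cebpg knockout cells (2.45), and the gene of the other ligand, Pdcd1lg2, was not called in any genotype (-0.05, -0.36 and -0.41). On the CTLA-4 axis the activating receptor Cd28 fell in all genotypes (-0.57, -0.32 and -0.51), as Ctla4 rose, and Icos, another activating relative, rose (0.50, 0.48 and 0.42). Of the genes of the ligands that CTLA-4 and CD28 share, Cd80 rose in each genotype (0.56, 0.70 and 0.69). The other, Cd86, rose in Rosa26 cells (1.5) and was not called in the knockouts (0.72 and 0.81). Cd86 was 1.53 in Atf4 knockout cells without untreated replicate 2 (adjusted p = 0.00582), and in Cebpg knockout cells it was called by limma-voom (0.0481), in the groups alone (0.0203) and without Cebpg knockout halofuginone replicate 2 (0.0415) or Atf4 knockout untreated replicate 2 (0.036).
On the TIGIT axis both the inhibitory and the activating receptor went up. Cd226 rose by 0.26 ± 0.0928 in Rosa26 (adjusted p = 0.0279), 0.65 in Atf4 knockout and 0.41 in Cebpg knockout cells, and the shared ligand gene Pvr rose by 0.81, 0.63 and 0.61. The Rosa26 call for Cd226 was lost without Rosa26 untreated replicate 2 (0.0918) or 3 (0.0776) or Rosa26 halofuginone replicate 2 (0.0532). On the HVEM axis the receptors Cd160 and Btla fell in Rosa26 cells, while Tnfrsf14, which encodes HVEM, rose by 0.80, 0.74 and 0.75 in the genotypes in the same order. Tnfsf14, the gene of the activating HVEM ligand LIGHT, fell in Rosa26 (-1.41) and Cebpg knockout cells (-1.40) and was not called in Atf4 knockout cells (-0.67).

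**Figure D4:**
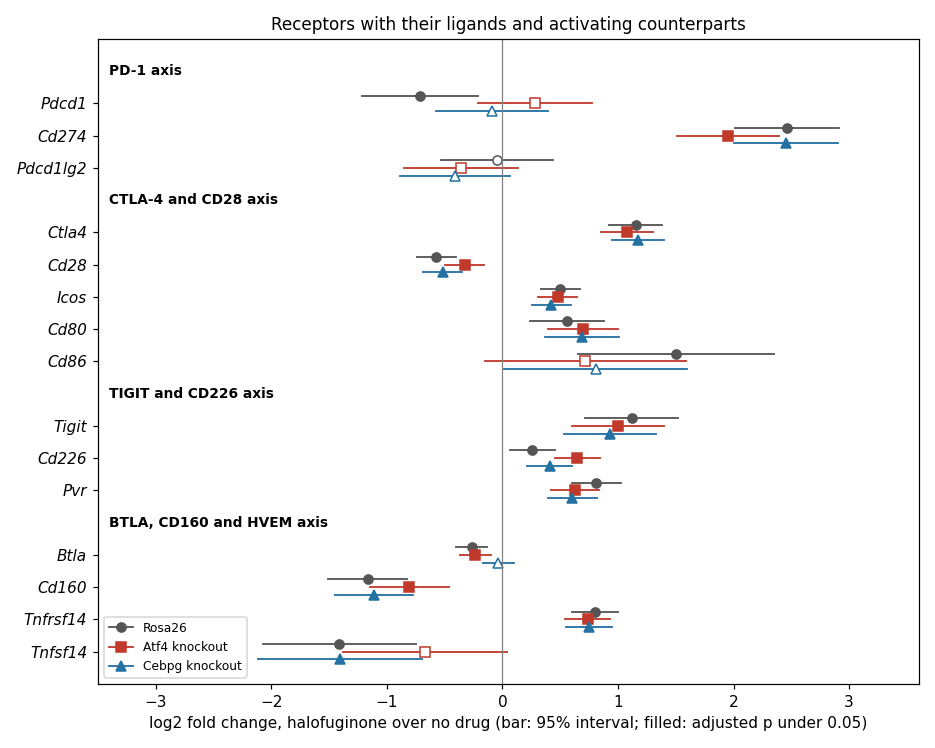
The log2 fold change with halofuginone over no drug (horizontal axis) of each receptor with its ligands and activating counterparts, by genotype, with 95% intervals as bars and filled symbols where the adjusted p was under 0.05. Cd274 lies between 1.95 and 2.46 while Pdcd1 is at or below 0.28, and Ctla4 and Cd28 lie on opposite sides of 0.

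Lists of related genes moved in both directions. Of 12 other inhibitory receptors measured, 5 rose and 5 fell in Rosa26 cells, with a median log2 change of -0.17. Of this list Cd6, a receptor for CD166, fell (-0.60) and Cd200 rose (1.13). Of 12 ligands of the receptors 5 rose and 2 fell (median 0.45), and Hmgb1, a nuclear protein that TIM-3 can bind, fell (-0.94). Of 12 costimulatory counterparts 9 rose and 3 fell (median 0.39), with Tnfrsf18 (GITR) at 1.31 and Slamf1 at 0.80. Of 17 signalling and trafficking partners 4 rose and 8 fell (median -0.15). Ptpn6, the phosphatase SHP-1 that inhibitory receptors recruit, fell from 324 ± 8.26 to 147 ± 13.8 CPM (SD, n = 3; log2 change -1.14), and Ptpn22, a phosphatase that restrains the antigen receptor, rose (0.60). Of 23 relatives of Tox and factors linked to exhaustion, 10 rose and 7 fell (median 0.08): Bach2, which holds T cells in a memory state, rose (1.87), Eomes, an effector factor, fell (-1.5), and the paralog Tox4 fell (-0.28). Of 17 genes of T cell activation 6 rose and 2 fell (median 0.26), with Cd69 up (0.80) and Tfrc, the transferrin receptor, down (-0.82). Over the alternatives 6 to 9 costimulatory genes rose, with 6 without Rosa26 halofuginone replicate 2, and 1 to 3 activation genes fell, with 1 under upper-quartile scaling. The median over all genes was 0.02, and the counts of each list are to be read against the 23.6% of all genes called higher and 24.1% called lower.

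Ctla4 and Tigit are also high in regulatory T cells, so the markers of that cell type and of CD4 T cells are given here. The 4 of 6 markers measured summed to 800 to 847 CPM in Rosa26 untreated, 800 to 846 in Rosa26 treated, 594 to 662 in Atf4 knockout untreated, 620 to 655 in Atf4 knockout treated, 716 to 790 in Cebpg knockout untreated and 659 to 708 in Cebpg knockout treated libraries. Cd4 and Cd40lg were not analysed here. Most of that sum is Il2ra, the interleukin receptor chain of activated and regulatory T cells, at a mean of 802 CPM in Rosa26 untreated and 745 CPM in treated cells, and the other 3 markers rose with the drug in Rosa26 cells. Zbtb7b, the factor of the CD4 lineage, rose from a mean of 3.92 to 26.8 CPM there (log2 change 2.77), and by 2.07 in Atf4 knockout and 1.06 in Cebpg knockout cells. Ikzf2, the factor Helios, rose from 18 to 48.6 CPM in Rosa26 cells (1.43), and by 1.87 and 1.83 in the knockouts. Foxp3, the defining factor of regulatory T cells, rose in Rosa26 cells from a mean of 4.82 to 7.93 CPM with the drug (log2 change 0.72 ± 0.153, adjusted p = 0.000638). In Atf4 knockout cells Foxp3 was at 10.8 CPM without and 9.11 CPM with drug, a change of -0.25 that was not called (adjusted p = 0.169), while Ctla4 rose there by 1.07. Untreated Atf4 knockout cells had more Foxp3 than Rosa26 cells (1.16 ± 0.151, adjusted p = 1.7e-05), as they had more Ctla4, and with the drug the difference in Foxp3 was 0.20 (adjusted p = 0.35). Foxp3 was also called higher in untreated Cebpg knockout than in Rosa26 cells. Ctla4 was at 0.23 there, which was not called (adjusted p = 0.205) and was called under the alternatives given above. That Foxp3 call was lost with limma-voom (0.57, adjusted p = 0.0576) and with a replicate block (0.59, 0.0522). It was also lost without any 1 of the 3 Rosa26 untreated libraries (0.0722 to 0.107). The same held without Cebpg knockout untreated replicate 2 (0.16) or 3 (0.102). The part of these cells in the Ctla4 and Tigit levels was not tested.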

How the data were processed

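Messenger RNA of 18 libraries was made into directional libraries with dUTP, per the labels' protocols. The deposited table holds raw counts of reads per gene made by the authors with STAR, HTSeq and GRCm39, per the submitters' processing notes, with edgeR named there too; their order, versions and settings are not stated in what was available to this work. Every gene had at least 0.546 CPM (counts scaled to library size) in 3 libraries, so a filter on low counts appears to have been applied, and its rule is not stated. No library or column was left out.

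Counts were scaled by TMM and fitted with edgeR 4.0.16 (quasi-likelihood, R 4.3.3, robust) over all 6 groups of 3, with 1 coefficient per group, and p-values were adjusted over all 14695 genes by the Benjamini-Hochberg method for each of 11 comparisons; calls need an adjusted p under 0.05. Levels are CPM by TMM library size, log2 levels use a prior count of 2, and levels per length use GENCODE exon unions on GRCm38. Alternatives used DESeq2 1.42.0 and limma-voom (limma 3.58.1), other scalings, a filter, fewer groups and libraries left out. The code was tested on simulated data. Of 449 unnamed genes 431 were named from the annotation.

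The members and lists were chosen with earlier results of these data known, and the GGAAA motif after the other motifs had been searched. Beyond the members, named genes are the 2 of each list with the smallest p for halofuginone in Rosa26, partners of a member, and the 3 genes with the most similar pattern, of which 1 is not reported here. Foxp3 was named after its values were seen.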

Additional observations from a re-analysis of the deposited data

How the results depend on the processing

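Over 77 results for the 7 genes and 26 alternatives, 18 of which left out 1 library, 2000 values were computed: 1928 kept their call, 29 lost it, 43 gained it and 0 reversed, and DESeq2 gave no adjusted p for 2 others. The number of the 7 genes called in untreated Cebpg knockout against Rosa26 cells was 0 with TMM, 2 with upper-quartile scaling, 4 in the fit of the groups compared alone, 3 without the 3 low-Malat1 libraries and 0 to 2 with 1 library left out. For untreated Atf4 knockout against Rosa26 cells it was 3, with 4 in the groups alone and 3 to 4 with 1 library left out. For the knockouts against each other it was 2 untreated (0 to 2 with 1 library left out) and 0 with the drug, where upper-quartile scaling, DESeq2 and leaving out the low-Malat1 libraries gave 1 each and leaving out 1 library 0 to 1. For Cebpg knockout against Rosa26 with the drug it was 3 (1 to 4 with 1 library left out). RLE and upper-quartile scaling, DESeq2 and the stricter filter gave 4 there, and limma-voom 2. For Atf4 knockout against Rosa26 with the drug it was 4 (3 to 5 with 1 library left out). RLE and upper-quartile scaling, DESeq2 and the stricter filter gave 5 there, and the groups alone 3. For the Atf4 interaction it was 0, with 1 by RLE scaling, 2 by DESeq2, 1 without the low-Malat1 libraries and 0 to 1 with 1 library left out, and for the Cebpg interaction 0 (0 to 1 with 1 library left out). Adding a replicate block changed no call of these genes, with 7 called for halofuginone in Rosa26 cells as without it. Whether the numbers pair the libraries is not known. Deviations of same-numbered libraries from their group means correlated at a median of -0.0499 (-0.781 to 0.661, 45 pairs), and those of differently numbered libraries at 0.0211 (90 pairs). The low-Malat1 libraries are number 2 in Rosa26 and number 3 in the knockouts and weigh on these values, so the medians cannot decide it. Over all genes, untreated Cebpg knockout against Rosa26 gave 735 calls, and 1536 with RLE, 2020 with DESeq2, 4113 in the groups alone and 3929 without the low-Malat1 libraries. The same alternatives in that order, where they moved the count over 1.5 times, gave the following. For the untreated knockouts against each other, 488 became 915 with DESeq2, 1716 and 1737. For the treated knockouts, 147 became 223, 501, 1 and 721, with 291 by upper-quartile scaling and 90 with the block. For Atf4 knockout against Rosa26, 3827 untreated became 6086 in the groups alone and 6158 without the low-Malat1 libraries, and 4128 treated became 2373 in the groups alone. For the interactions, 943 for Atf4 became 1508 with DESeq2, 617 in the groups alone and 2194 without the low-Malat1 libraries, and 363 for Cebpg became 648 with DESeq2 and 1051 without them. Upper-quartile scaling moved the median log2 change of all genes for halofuginone in Cebpg knockout cells from -0.03 to 0.08. The cause of these shifts was not tested. Pdcd1 rests on 37 to 80 and Tigit on 42 to 164 counts per library.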

Other observations

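The activating receptors also differed between genotypes. In untreated Atf4 knockout against Rosa26 cells 7 of the 12 costimulatory counterparts were higher and 1 was lower, where 11.7% of all genes were higher and 14.3% lower. Over the alternatives 5 to 8 were higher, with 5 without Rosa26 untreated replicate 1, and 1 was lower in each. With halofuginone 5 were higher (4 to 6 over the alternatives) and 1 lower (0 to 1), where 11.8% of all genes were higher and 16.3% lower. Of the 17 genes of T cell activation, 1 was higher (0 to 1) and 5 were lower (3 to 7) in untreated Atf4 knockout cells, with 3 lower without Rosa26 untreated replicate 3. Of the 23 relatives of Tox and exhaustion-linked factors, 4 were higher (2 to 4) and 7 lower (5 to 11) there, with 2 higher without Rosa26 untreated replicate 1 and 11 lower without the low-Malat1 libraries. In the interaction for Atf4, 5 of these 23 had a more positive response to halofuginone than in Rosa26 cells (5 to 8) and 0 a more negative one (0 to 2), where 2.41% and 4.01% of all genes were called. Among all genes called in that interaction, RLE scaling moved the share with a more positive response from 37.5% to 59.0%. These lists were chosen with results of these data known, and the comparisons share the Rosa26 libraries.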
